A study of Mus musculus with 2 samples.

Results

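Conventional CD4 T cells are described here within tumors of MC38, a mouse colon cancer line grown under the skin. Members were chosen by their own UMI counts, a UMI being a tag that marks 1 captured RNA molecule. Droplets under 500 genes or 1000 UMIs, or over 15% mitochondrial UMIs, were left out first. A remaining cell was a member if it had at least 1 UMI of Cd3e, Cd3d and Cd3g together, at least 1 UMI of Cd4, none of Foxp3, none of Cd8a and Cd8b1, none of Trdc, Tcrg-C1, Cd163l1 and Il17a, and at most 2 UMIs of C1qa, C1qb and C1qc. The rule found 92 members among 25402 kept cells: Lmo7+/+ tumors gave 43 of 13542 and Lmo7-/- tumors gave 49 of 11860.

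The Lmo7+/+ library came from tumors of wild-type hosts. The Lmo7-/- library came from tumors of hosts that lack Lmo7 in the germline, so every host cell carries the deletion while the same MC38 cells were implanted into both. Live cells were sorted from dissociated tumors, and the number of mice behind each library is not given in the sources used here. Each genotype has 1 library and hence no replicate, no p-value is given, and all intervals below are 95% intervals for counting error alone. Lmo7 itself had 0 UMIs in members of both libraries, which allows up to 32.6 counts per 1000000 UMIs (CPM) in Lmo7+/+ and 18.5 CPM in Lmo7-/- at a limit of 3 counts. Over all droplets Lmo7 had 1414 UMIs (Lmo7+/+) and 922 UMIs (Lmo7-/-), tumor cells included, so its counts give no check of the host genotype.

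CD4 T cells recognize peptides on MHC class II through a T cell receptor with Cd4 as coreceptor. Those without Foxp3, the transcription factor of regulatory T cells, act mainly as helpers: they secrete cytokines and display TNF family ligands that act on macrophages, dendritic cells, B cells and CD8 T cells. Th1 cells make interferon gamma, Th2 cells Il4 and Il5, Th17 cells Il17 and follicular helper cells Il21, while naive cells keep Tcf7 and Lef1. In tumors such cells are usually a minority beside CD8 T cells and regulatory T cells.

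The members were shallow cells. Their median was 1570 UMIs in Lmo7+/+ (range 1004 to 5881) and 1882 in Lmo7-/- (range 1014 to 19249), and together they held 92059 and 161851 UMIs. In the Lmo7-/- library 5 members with more than 8000 UMIs held 40.5% of the UMIs, and no Lmo7+/+ member was that deep. Sums over members in Lmo7-/- therefore lean on few cells. The libraries shared 279 barcodes, 0.897% of all, and no member carried a shared one.

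The gates sat close to the detection limit. Cd4 stood at exactly 1 UMI in 16 of 43 and 18 of 49 members, with a median of 2 in both libraries, and 110 and 101 cells just outside passed every other gate with 0 Cd4 UMIs. A single Cd3 UMI was found in 5 members of each library, and 19 and 15 cells missed only that gate. A further 9 cells in each library missed only the Foxp3 gate, by 1 UMI. C1q stood at its limit of 2 UMIs in 5 and 1 members, and 1 and 2 cells had 3. As background, a Cd4 UMI was found in 7.2% and 6.13% of macrophages (C1q of at least 10 UMIs and no Cd3 UMI; medians 5338.5 and 4630 UMIs) and in 2.35% and 2.30% of T cells with a Cd8 UMI and no Foxp3 UMI (medians 2668 and 2545 UMIs).

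The T cell label held for nearly every member. Transcripts of the T cell receptor constant genes Trac, Trbc1 and Trbc2, which the rule did not use, were present in 42 of 43 and 48 of 49 members, each with at least 2 UMIs and with medians of 7 and 8. Icos, a costimulatory receptor of activated T cells, was present in 34 of 43 and 46 of 49 members, with 142 and 251 UMIs. After each cell was thinned to 1500 UMIs, which left out 21 and 16 shallower members, Icos was detected in 81.8% (18 of 22) and 75.8% (25 of 33) of members against 0.102% and 0.230% of macrophages. In the other T cell classes defined below, Icos was detected in 90.5% and 87.5% of Foxp3 T cells and 48.8% and 58.0% of CD8 T cells. Its level was 1542 CPM (1299 to 1818) in Lmo7+/+ and 1551 CPM (1365 to 1755) in Lmo7-/-.

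Other defining genes of helper T cells had few or no UMIs in members. Zbtb7b, which encodes the CD4 lineage factor ThPOK, had 1 and 0 UMIs in members, under the limit of 3 counts (32.6 and 18.5 CPM). Over all droplets it had 1312 of 98582479 and 1281 of 80648345 UMIs, a low level. The counts therefore do not show whether members lack Zbtb7b. Cd40lg, the helper ligand for CD40, had 1 and 3 UMIs in the whole libraries and 0 in members, so these counts say little about it. V gene segments were rarely counted: Trbv genes in 1 and 0 members and Trav genes in 1 and 2 members, too few to describe receptor use.

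The members made up 0.318% (0.230 to 0.427) of kept cells in Lmo7+/+ and 0.413% (0.306 to 0.546) in Lmo7-/-. The difference of 0.0956 percentage points had an interval from -0.0533 to 0.251. Among cells with a Cd3 UMI and at most 2 C1q UMIs, the share was 7.96% (43 of 540) against 6.87% (49 of 713), a difference of -1.09 percentage points (-4.15 to 1.81). Both intervals include 0. The first excluded 0 with a lenient cell filter of 200 genes, 500 UMIs and 25% mitochondrial UMIs (0.0157 to 0.299) and with gates after thinning, and the second difference turned to 1.03 points with a strict filter of 1000 genes, 2000 UMIs and 10% mitochondrial UMIs and 0.815 points after thinning. Against Foxp3 T cells, which pass the same gates except that they hold a Foxp3 UMI, members numbered 43 to 27 in Lmo7+/+ and 49 to 29 in Lmo7-/-, that is 61.4% (49.03 to 72.8) and 62.8% (51.1 to 73.5) of both classes together.

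Among themselves the members carried genes of several helper lists. The plot of UMIs cell by cell shows Ifng and Ccr7 among other genes. Of 15 Th1 genes, 14 and 15 had a UMI, led by Bhlhe40 (100 and 181 UMIs), a regulator of cytokine output in activated T cells, whereas Tbx21, the Th1 master factor, had 11 and 14 UMIs. Of the Th2 genes, Il4, Il5 and Il9 were at 0 in both libraries, and Gata3 had 16 and 30 UMIs. Of the Th17 genes left outside the gate, Il17f, Il22 and Il23r were at 0 in both, and Rora held 60 of 63 and 96 of 104 UMIs. Of the follicular helper genes, Maf held 61 of 96 and 85 of 130 UMIs, and Il21 had 0 and 1. The list of naive and central memory genes was led by Ccr7, a homing receptor for lymph nodes, with 41 and 78 UMIs in 10 and 17 members. Not all these lists were higher than in Foxp3 T cells. The Th2 list summed to 217 and 259 CPM against 254 and 376 CPM there, and the follicular list to 1043 and 803 against 1217 and 2587 CPM. The Th1 list summed to 3357 and 2811 against 1781 and 2724 CPM, and the Th17 list to 684 and 643 against 461 and 581 CPM.

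**Figure D1:**
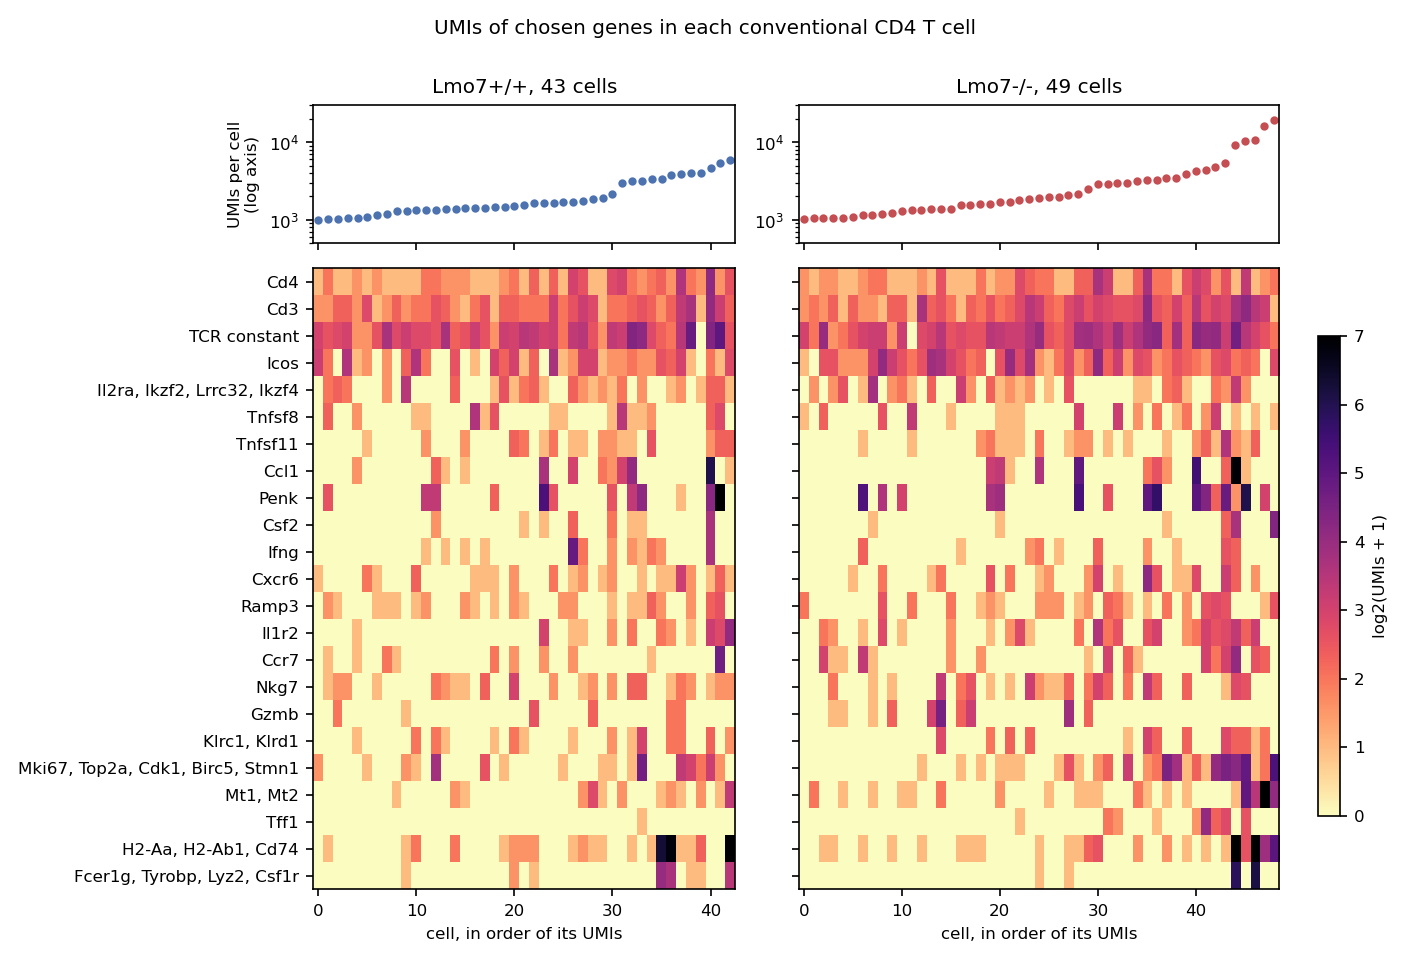
Each column is 1 conventional CD4 T cell, in order of its UMIs, with the Lmo7+/+ library on the left and the Lmo7-/- library on the right; the upper panels give the UMIs per cell on a log axis and the lower panels the log2(UMIs + 1) of single genes or summed small groups. T cell receptor constant genes and Icos fill most columns, Penk and Ccl1 lie in 28 and 24 of 92 cells, and MHC class II genes concentrate in a few deep cells.

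Some genes known from regulatory T cells were counted in members although Foxp3 was gated out. At least 1 UMI of Il2ra, Ikzf2, Lrrc32 or Ikzf4 was found in 25 of 43 and 27 of 49 members. Il2ra, the high affinity chain of the interleukin 2 receptor, had 31 and 37 UMIs, and Ikzf2, which encodes Helios, had 19 and 28. Both were lower than in Foxp3 T cells, as given further on. After thinning, Il2ra was detected in 45.5% and 27.3% of members against 8.13% and 12.4% of CD8 T cells (without thinning, 39.5% and 32.7% against 15.1% and 21.8%). Ikzf2 was detected in 13.6% and 18.2% of members against 21.95% and 15.8% of CD8 T cells (without thinning, 27.9% and 30.6% against 34.7% and 23.9%), so it did not set members apart from these. Macrophages had thinned shares of 1.14% and 0.551% for Il2ra and 1.07% and 1.22% for Ikzf2. Whether cells with an uncounted Foxp3 transcript are among the members was not tested. Counts without all these cells rest on 18 and 22 members.

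Genes known from myeloid cells were counted in members as well. At least 1 UMI of a macrophage marker was found in 29 and 32 members, of which 27 and 30 had Ctsb, a gene also counted in the other T cells, and 3 or more UMIs were found in 8 and 12. The MHC class II genes H2-Aa, H2-Ab1 and Cd74 together reached 10 or more UMIs in 3 and 4 members, and the 3 highest cells held 92.9% and 89.3% of their 397 and 431 UMIs. The 12 macrophage markers had 111 and 240 UMIs, or 1206 and 1483 CPM against 915 and 741 CPM in Foxp3 T cells, 990 and 862 CPM in CD8 T cells and 16228 and 20557 CPM in macrophages. Of these UMIs, 56 and 178 lay in 3 members of each library. Ctsb was their most abundant gene with 46 and 72 UMIs, at 499.7 and 445 CPM against 493 and 581 CPM in Foxp3 T cells, Ms4a7 was at 0 in both libraries, and Adgre1 and Mrc1 were at 0 in Lmo7-/-. B cell markers had 2 and 0 UMIs, and Ncr1 and Zbtb16, markers of natural killer and NKT cells, had 0 in both. Leaving out every member with 3 or more UMIs of another lineage kept 23 and 26 members.

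The genes that varied most from member to member included cytokines, chemokines and MHC class II genes. Among 2995 genes ranked by variance over mean after thinning 55 members to 1500 UMIs, Penk stood first at 20.5, followed by H2-Aa (15.6), Gm42418 (15.2), Ifng (13.7), Ccl3 (13.4), Ccl1 (12.7), H2-Ab1 (11.9), H2-Eb1 (10.0), Ccl5 (7.36) and Nrgn (7.18). Penk encodes the precursor of enkephalin peptides. It had 306 UMIs in 12 Lmo7+/+ members, 60.5% of them in 1 cell, and 365 UMIs in 16 Lmo7-/- members, at most 17.8% in 1 cell. Ccl1, a chemokine that attracts Ccr8-bearing cells, had 120 and 239 UMIs in 12 members of each library, with 53.3% and 50.6% in 1 cell. Output of both genes was thus carried by a minority of members. Penk and Ccl1 were detected together in 14 members, Penk alone in 14 and Ccl1 alone in 10, and members with both were deeper (median 3212 UMIs) than members with Ccl1 alone (1799.5 UMIs).

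Gzmb, the cytotoxic protease granzyme B, was counted in other members than Tnfsf8, a TNF family ligand of CD30, a pair chosen after its values were seen. Gzmb was detected in 16 members and Tnfsf8 in 35, and no member had both, although 41 members had neither. Gzmb and Penk shared 1 member. Of the members with Gzmb, 14 also had a UMI of Il2ra, Ikzf2, Lrrc32 or Ikzf4 and 2 did not. Among the other members 38 had such a UMI and 38 did not. Foxp3 T cells held Gzmb at 803 and 2690 CPM and no Tnfsf8 UMI. The members with Gzmb were shallow, with a median of 1458 UMIs. The part of depth and of regulatory genes in this was not tested.

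Compared with Foxp3 T cells, 60 of 3971 genes were higher in members, or 1.51%, and 22 were lower, or 0.554%. A gene counted as higher or lower when its CPM, from counts summed over cells, differed at least 2-fold in the same direction in both libraries with both counting intervals away from 0, and gate genes were left out. The genes higher in members were led by Nrgn, Ccl1, Tnfsf11, Igfbp7, Ramp3, Tnfsf8, Cxcr6, Lgals7, Ifng and Csf2. The lower genes were led by Klrg1, Ikzf2, Gzmb, Sv2c, Il2ra, Ccna2, Glrx, Ccr2 and Snx9. Foxp3 T cells numbered 27 and 29, with medians of 2578 and 2002 UMIs. In Lmo7+/+, 5 of them above 8000 UMIs held 58.4% of the UMIs of the class, so its sums lean on few cells. Without cells above 8000 UMIs, 29 of the 60 higher and 12 of the 22 lower genes still passed the rule.

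Several TNF family ligands and cytokines were among the genes higher in members. Of 9 genes compared from their list of 18, 4 were higher in members, namely Tnfsf8, Tnfsf11, Csf2 and Ifng, and none was lower. The list's median log2 ratio was 2.26 in Lmo7+/+ and 0.79 in Lmo7-/-, against -0.01 and -0.04 over all genes compared. Tnfsf8 had 52 UMIs in 16 of 43 members and 60 UMIs in 19 of 49, and 0 UMIs in Foxp3 T cells of both libraries, so it was at least 23.7-fold and at least 10.8-fold higher. Tnfsf11, the ligand RANKL that drives osteoclasts and supports dendritic cells, had 39 and 46 UMIs against 1 and 1, which gave log2 ratios of 5.74 (3.17 to 11.07) and 4.64 (2.09 to 9.97). In Foxp3 T cells both ligands were thus at or near 0.

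Csf2, the growth factor GM-CSF for myeloid cells, had 25 and 39 UMIs in members against 1 and 0. Its counts came from 8 and 6 members, and 1 Lmo7-/- cell of 19249 UMIs held 20 of the 39. With the gates applied after thinning, its log2 ratio in Lmo7-/- was -0.54. Thinned Foxp3 T cells of that library had a Csf2 UMI in 0 of 24, so this value reads as a lower bound. Ifng had 57 and 27 UMIs against 0 and 2, a log2 ratio of at least 4.70 in Lmo7+/+ and of 2.87 (0.88 to 5.99) in Lmo7-/-. Ccl1 had 0 UMIs in Foxp3 T cells of both libraries and was at least 54.6-fold and at least 43.2-fold higher in members.

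Cxcr6, Ramp3, Klrc1 and Klrd1 were also higher in members, whereas of 7 checkpoint receptors compared none was higher or lower. Cxcr6, a chemokine receptor of tissue-resident T cells, was at 456 and 451 CPM in members and 31.8 and 45.6 CPM in Foxp3 T cells, with log2 ratios of 3.84 (2.38 to 5.78) and 3.31 (1.89 to 5.22). Ramp3, which modifies the calcitonin receptor-like receptor, had 40 and 63 UMIs against 5 and 2. Klrc1, which encodes the inhibitory receptor NKG2A, had 23 and 32 UMIs in 11 members of each library and 0 in Foxp3 T cells, and its partner Klrd1 had 13 and 19 against 1 and 0. Both genes are also NK cell and CD8 T cell markers, while Klrb1c, Ncr1 and Klra7 were at 0 in members.

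Several regulatory genes were lower in members, where Foxp3 itself was fixed at 0 by the gate. Of 18 regulatory T cell genes compared, 4 were lower (Ikzf2, Il2ra, Klrg1 and Ikzf4) and none was higher. Il2ra was at 337 and 229 CPM in members and 1241 and 1721 CPM in Foxp3 T cells, with log2 ratios of -1.88 (-2.49 to -1.32) and -2.91 (-3.47 to -2.39). Gzmb was lower too, at 206 and 414 CPM against 803 and 2690. Icos itself did not separate the classes in one direction, with log2 ratios of 0.26 (-0.08 to 0.59) and -1.14 (-1.38 to -0.89). The MHC class II genes H2-Aa, H2-Ab1 and Cd74 were higher in members than in Foxp3 T cells, and the cells that hold most of these UMIs are the few described above; their part in other ratios was not tested beyond the count without them.

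**Figure D2:**
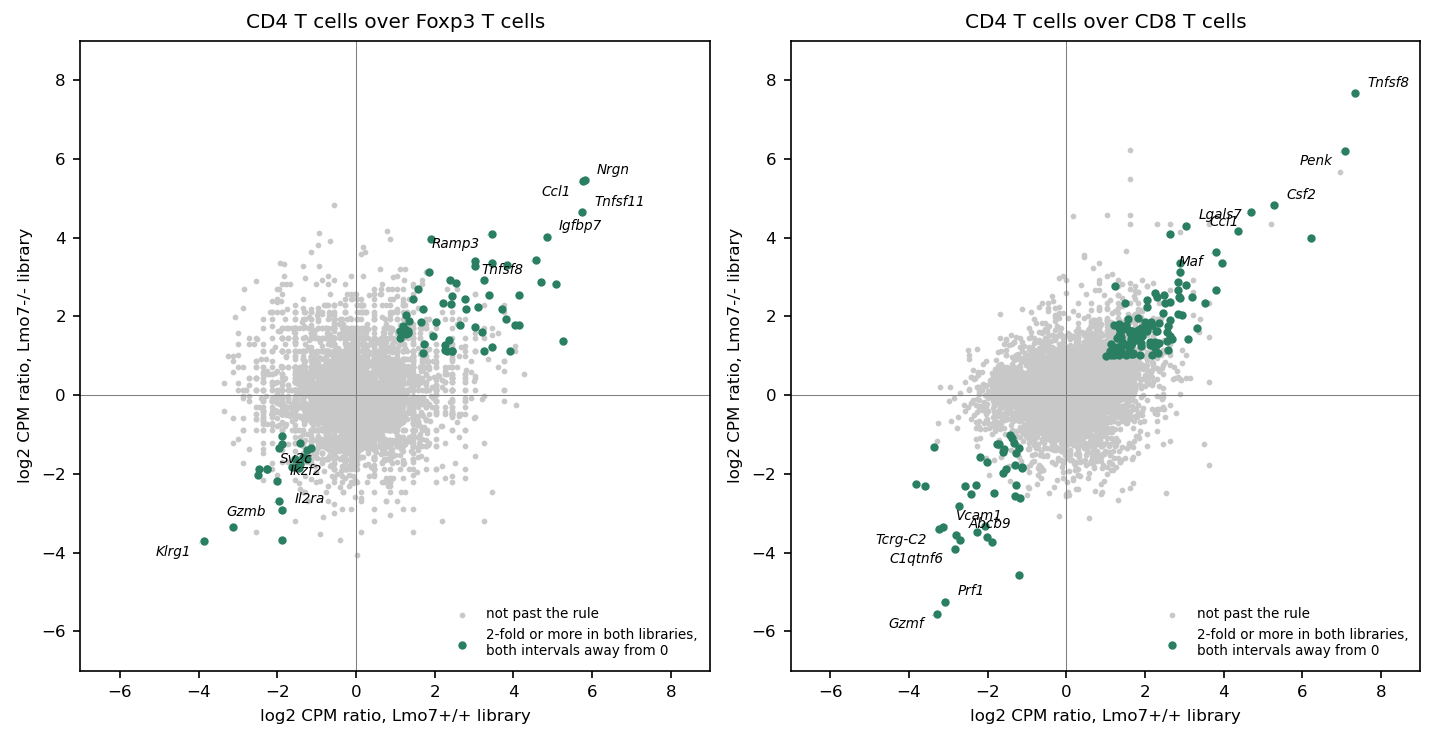
Each point is a gene, with the log2 ratio of CPM in conventional CD4 T cells over Foxp3 T cells (left) or CD8 T cells (right) in the Lmo7+/+ library on the x axis and in the Lmo7-/- library on the y axis; green points pass the 2-fold rule in both libraries. Tnfsf8 and Penk lie farthest to the upper right against CD8 T cells and Gzmf and Prf1 farthest to the lower left.

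Compared with CD8 T cells, 115 of 9309 genes were higher in members, or 1.24%, and 39 were lower, or 0.419%. CD8 T cells were gated by at least 1 UMI of Cd8a or Cd8b1 with no Cd4 or Foxp3 UMI and numbered 291 and 468, with medians of 2656 and 2557 UMIs. Among called genes with at least 50 counts, the 10 highest ratios belonged to Tnfsf8, Penk, Csf2, Ccl1, Maf, Lgals7, Tbc1d4, Il1r2, Ramp3 and Cxcr4. The 10 lowest belonged to Gzmf, Tcrg-C2, Vcam1, Prf1, C1qtnf6, Abcb9, Col3a1, Ppp1r3b, Col6a2 and Xcl1.

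Tnfsf8 separated these classes most widely. It had 4 and 3 UMIs in all CD8 T cells against 52 and 60 in members, with log2 ratios of 7.33 (5.89 to 9.26) and 7.67 (6.05 to 9.98). After thinning, it was detected in 36.4% (8 of 22) and 33.3% (11 of 33) of members, in 2 of 246 and 0 of 379 CD8 T cells, and in 2.18% and 1.63% of macrophages; without thinning the members' shares were 37.2% and 38.8%. Penk, which was at 87.5 and 878 CPM in Foxp3 T cells, had log2 ratios against CD8 T cells of 7.08 (6.52 to 7.69) and 6.21 (5.78 to 6.67), and Ccl1 of 4.70 (4.24 to 5.18) and 4.66 (4.31 to 5.02). Ccl1 was at 1304 and 1477 CPM in members and 50.1 and 58.4 CPM in CD8 T cells. For Tnfsf11 the levels were 424 and 284 CPM against 68.5 and 54.7 CPM.

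Tnfrsf4, Cd5, Maf and Rora were higher in members as well. Of 8 genes on the CD4 helper list, Tnfsf8, Tnfrsf4 and Cd5 were higher and none was lower. Tnfrsf4, the costimulatory receptor OX40, was at 641 and 439 CPM against 107 and 129 CPM. Maf, a factor for interleukin 10 and follicular helper genes, had log2 ratios of 3.80 (3.25 to 4.36) and 3.65 (3.17 to 4.13), and Rora, a nuclear receptor of Th17 and innate-like lymphocytes, of 2.89 (2.41 to 3.37) and 2.47 (2.096 to 2.84). Against Foxp3 T cells none of Tnfrsf4, Maf and Rora passed 2-fold in both libraries. In Lmo7-/- alone Tnfrsf4 and Maf were lower in members by more than 2-fold. Tnfrsf4 and Maf were at 700 and 1117 and at 923 and 2097 CPM in Foxp3 T cells, and Rora was at 422 and 570 CPM against 652 and 593 CPM in members. Il1r2, a decoy receptor for interleukin 1, was at 554 and 636 CPM against 77.3 and 100.4 CPM, but 489 and 463 CPM in macrophages.

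A few early memory genes were higher than in CD8 T cells, at low counts. Of 11 naive and central memory genes compared, S1pr1, Lef1 and Tcf7 were higher and none was lower, against 1.24% of all genes higher. Their counts were small: Tcf7 had 10 UMIs in each library, Lef1 had 5 and 8, and S1pr1 had 12 and 9. Of 15 regulatory T cell genes, 8 were higher than in CD8 T cells, among them Il2ra, Ctla4, Tnfrsf18, Areg and Ebi3.

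The killing machinery was lower in members. Of 15 cytotoxic effector genes compared, 8 were lower and none was higher, with a list median of -1.35 and -1.54 on the log2 scale against 0.20 and 0.04 over all genes. Prf1, which encodes perforin, had 3 and 2 UMIs in members against 315 and 774 in CD8 T cells, with log2 ratios of -3.09 (-5.37 to -1.53) and -5.25 (-8.30 to -3.39). Gzmf was at 0 in members of both libraries against 363 and 1438 UMIs, log2 ratios of at most -3.29 and -5.56. Gzmb was at 206 and 414 CPM against 1010 and 2021 CPM, and Nkg7 at 543 and 531 CPM against 1309 and 1463 CPM. Ccl5 and Xcl1, chemokines of effector CD8 T cells, and the receptor genes Klrd1, Klrk1 and Klre1 were lower too. The collagens Col3a1, Col6a2 and Col1a1 were lower in members as well, where they had 1, 2 and 6 UMIs in Lmo7+/+ and 3, 3 and 5 in Lmo7-/-. Among CD8 T cells they were counted in 33, 36 and 37 of 291 cells and in 39, 38 and 51 of 468. The origin of these collagen UMIs in CD8 T cells was not tested. With the gates applied after thinning, Col3a1 and Col6a2 were at 0.84 and 0.37 on the log2 scale in Lmo7+/+. At so few UMIs these values may be upper bounds set by the limit of 3 counts. Without members with regulatory T cell UMIs Col3a1 was at most 0.35 there, a bound with no UMI left in members. Neither setting shows a turn of direction.

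**Figure D3:**
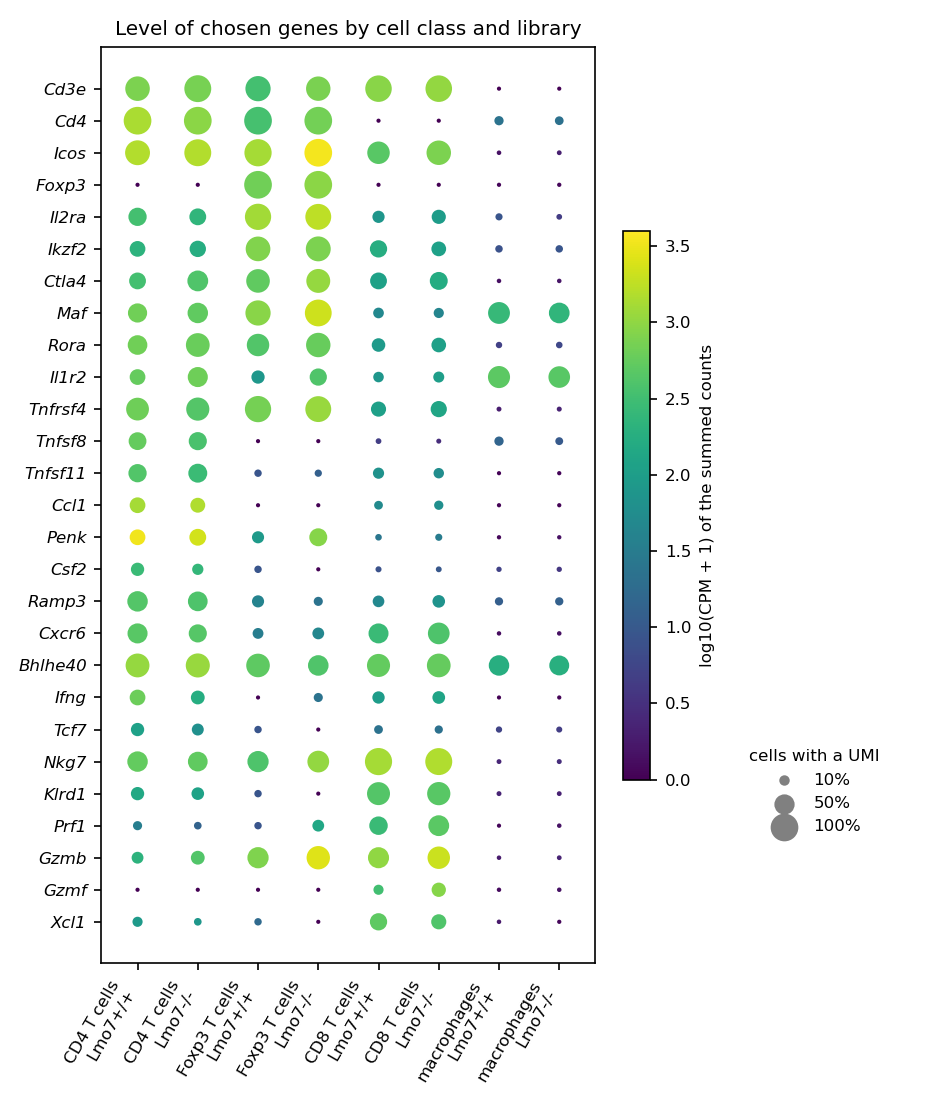
Rows are genes and columns are cell classes in each library; color gives the log10(CPM + 1) of counts summed over the class and dot area the share of its cells with a UMI, not thinned for depth. Tnfsf8, Tnfsf11, Ccl1 and Csf2 are brightest in conventional CD4 T cells, Foxp3, Cd4 and Cd3e reflect the gates, and Prf1, Gzmf and Xcl1 are brightest in CD8 T cells.

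Against both other classes, 5 genes were among the 10 highest ratios of both comparisons: Tnfsf8, Ccl1, Csf2, Ramp3 and Lgals7. Upstream sequences of 2 ligand genes that were higher in both comparisons are shown because a GENCODE transcript starts at the RefSeq start and no exon lies in the window. Tnfsf11 lies on the minus strand of chromosome 14, at 78277445 to 78308043 (GRCm38), and Ccl1 on the minus strand of chromosome 11. The windows are the 250 bases before the start, chr14:78308044-78308293 and chr11:82179813-82180062, from RefSeq (GRCm38.p6), written 5′ to 3′ on the gene's strand. Capitals mark GGAAA or its reverse complement TTTCC, the core letters bound by NFAT, a factor of T cell receptor signalling.
Tnfsf11: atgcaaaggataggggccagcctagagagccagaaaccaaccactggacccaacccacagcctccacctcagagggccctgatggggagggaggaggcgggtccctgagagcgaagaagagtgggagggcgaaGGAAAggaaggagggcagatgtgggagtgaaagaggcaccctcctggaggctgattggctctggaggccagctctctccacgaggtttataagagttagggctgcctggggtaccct
Ccl1: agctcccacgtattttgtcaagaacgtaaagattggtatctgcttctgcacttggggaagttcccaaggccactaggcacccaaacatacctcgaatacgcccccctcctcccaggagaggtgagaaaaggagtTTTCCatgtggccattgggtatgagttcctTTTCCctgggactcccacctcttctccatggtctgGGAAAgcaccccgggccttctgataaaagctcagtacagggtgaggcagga
Tnfsf11 held 1 match and Ccl1 held 3, while 55.6% of 32851 upstream windows of this length held at least 1, so a match is common. The AP-1 letters TGANTCA, searched on both strands, were in neither window and in 6.75% of all windows.

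Summed per class, the gene lists set the members apart in different ways. The list of helper cytokines and TNF ligands summed to 2737 and 1588 CPM in members, 541 and 821 CPM in Foxp3 T cells and 580 and 612 CPM in CD8 T cells. The regulatory list summed to 4497 and 4189 CPM in members, below 6458 and 10828 CPM in Foxp3 T cells and above 2067 and 2324 CPM in CD8 T cells. Cytotoxic effectors summed to 1912 and 2064 CPM in members against 1964 and 5004 CPM in Foxp3 T cells and 5024 and 7566 CPM in CD8 T cells. Checkpoint receptors, led by Pdcd1 in Lmo7+/+ and Ctla4 in Lmo7-/-, summed to 1260 and 1137 CPM in members, 1074 and 1904 CPM in Foxp3 T cells and 1178 and 1346 CPM in CD8 T cells. Members were thus highest of the 3 classes for the helper list and in the middle for the regulatory list in both libraries, while their place for the checkpoint list differed between the libraries. For the cytotoxic list they were below CD8 T cells in both libraries and close to Foxp3 T cells in Lmo7+/+, where 1 Foxp3 T cell held all 28 Gzma UMIs of its class.

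**Figure D4:**
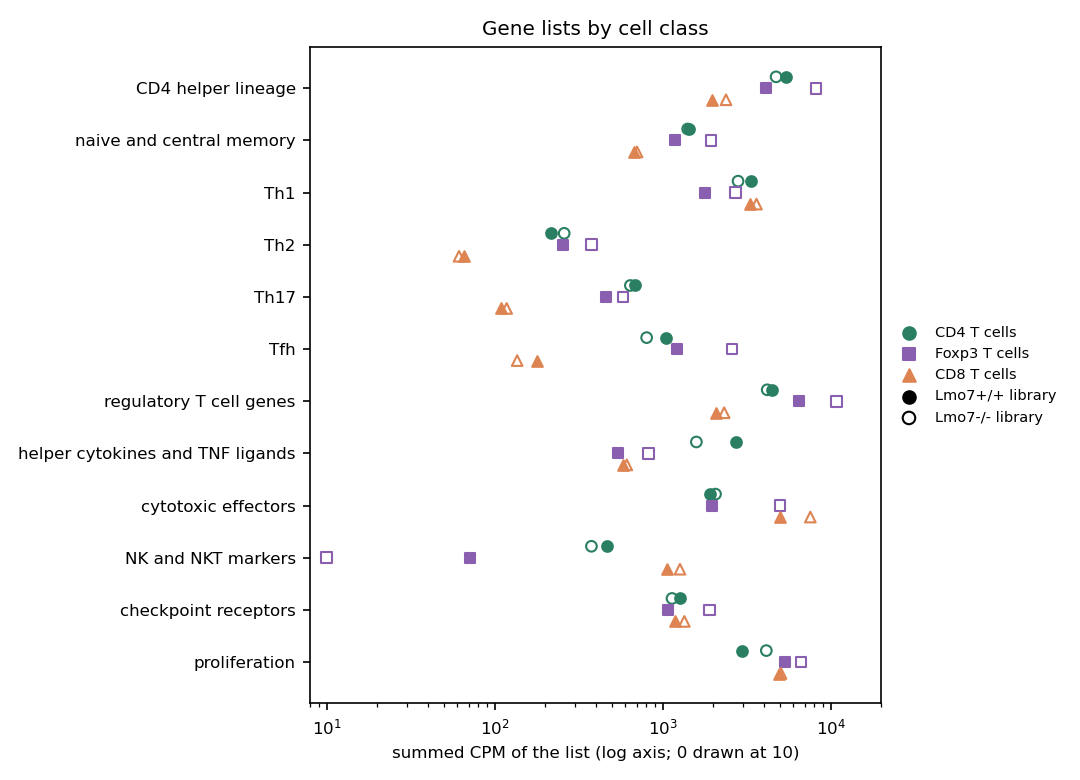
The x axis gives the summed CPM of each gene list on a log axis, with gate genes left out; marker shape and color give the cell class, filled markers the Lmo7+/+ library and open markers the Lmo7-/- library. The helper cytokine and TNF ligand list is highest in conventional CD4 T cells in both libraries (2737 and 1588 CPM), and within each library the cytotoxic list is highest in CD8 T cells.

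Between the libraries, 57 of 2310 genes were higher in Lmo7-/- members, or 2.47%, and 83 were lower, or 3.59%, by at least 2-fold with the counting interval away from 0 among genes with at least 20 counts. These counts compare the libraries and not the genotypes, and with this many genes counting error alone puts some past the rule. The split depends on scaling: with edgeR's TMM factors it was 118 higher and 36 lower, and the median log2 ratio of all genes moved from -0.02 to 0.17. Among the 57 higher genes 12 passed the rule without the members above 8000 UMIs, and among the 83 lower genes 29 did. Without members with UMIs of other lineages, 3 of 57 and 3 of 83 passed.

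Of the genes that led the comparisons with other T cells, several did not pass 2-fold between the libraries. The log2 ratio of Lmo7-/- over Lmo7+/+ was 0.18 (-0.14 to 0.51) for Ccl1, -0.02 (-0.58 to 0.57) for Cxcr6, 0.01 (-0.29 to 0.32) for Icos, -0.17 (-0.93 to 0.61) for Csf2 and -0.58 (-1.22 to 0.08) for Tnfsf11. Tnfsf8 was at 565 CPM in Lmo7+/+ and 371 CPM in Lmo7-/-, a log2 ratio of -0.61 (-1.17 to -0.04) that stayed under 2-fold. Of 18 helper cytokine and TNF ligand genes, 7 could be compared, and Ifng and Ltb were lower, where 3.59% of all genes were lower. One Lmo7+/+ cell held 28 of the 57 Ifng UMIs of that library, as described below. Ltb had 21 and 18 UMIs and was under 2-fold without members above 8000 UMIs (-0.55) and with TMM factors (-0.84).

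Single genes of the interferon lists were lower in the Lmo7-/- library. Ifng, the Th1 cytokine, had 57 UMIs in 12 Lmo7+/+ members and 27 UMIs in 10 Lmo7-/- members, a log2 ratio of -1.89 (-2.61 to -1.21). One Lmo7+/+ cell of 1705 UMIs held 28 of its 57 UMIs, and without members carrying other lineages' UMIs the ratio was 0.21. After thinning, 5 of 22 and 8 of 33 members had an Ifng UMI. Irf7, a driver of type I interferon responses, had 21 UMIs in 12 members and 5 UMIs in 5 members, a log2 ratio of -2.88 (-4.65 to -1.44), and of the 5 genes compared on its list it was the one past 2-fold. Gbp7, an interferon-induced GTPase, had 30 UMIs in 17 members and 16 in 12, as the one of 9 interferon gamma response genes that passed. Single genes of such short lists are to be set beside the 3.59% of all genes that were lower. Without members above 8000 UMIs Irf7 and Gbp7 were at -2.46 and -1.27, and without members with regulatory T cell UMIs at -4.25 and -0.85. The latter setting rests on 18 and 22 members and few UMIs. It keeps Lmo7-/- cells of 16145 and 19249 UMIs, which weigh on the total that the ratios are scaled by.

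The other genes lowest in Lmo7-/- members were Gramd3, Serpina3g, Ifitm1, Nfkbiz, Orai1, Oga, Samhd1, Elf1 and Plac8, with log2 ratios from -1.57 to -1.08. Serpina3g turned to 0.73 without members with regulatory T cell UMIs, and Plac8 to 1.17 without those with other lineages' UMIs, where Orai1 was at -0.26. Samhd1 (-0.35), Nfkbiz (-0.44), Gramd3 (-0.50), Serpina3g (-0.53), Oga (-0.60) and Ifitm1 (-0.89) were under 2-fold in that setting too, and Elf1 was at -1.99. Orai1, the pore of the calcium channel that T cell receptor signals open, had 35 UMIs and 25 UMIs in 22 members of each library. The receptor chain Cd247 was lower, with 21 and 16 UMIs, as was Cd6 with 22 and 19 UMIs. At these counts a few UMIs decide the call, and without members above 8000 UMIs Cd247 and Cd6 were at -0.65 and -0.62. Orai1 (-0.74), Gramd3 (-0.98), Serpina3g (-0.88), Oga (-0.70), Elf1 (-0.95) and Plac8 (-0.62) were under 2-fold there too.

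Among the genes highest in Lmo7-/- members, some were counted mostly in few deep cells. Mt2 and Mt1, metallothioneins that bind zinc, had 134 and 132 UMIs against 13 and 18, log2 ratios of 2.55 (1.73 to 3.50) and 2.06 (1.34 to 2.86). One cell of 16145 UMIs held 187 of the 266 UMIs of both genes, and without members above 8000 UMIs the ratios were -0.60 for Mt2 and -0.54 for Mt1. Sparc (1.37) and Anxa1 (1.22) changed sign in the same way, to -1.65 and -0.36. Egln1, Slc25a4 and Tubb5 were under 2-fold there, at 0.44, 0.35 and 0.47. Ctla2a, a protease inhibitor of activated lymphocytes, was spread more widely, with 8 UMIs in 8 members and 53 UMIs in 19 members, a log2 ratio of 1.91 (0.83 to 3.20) that was 1.98 without the deepest members. Gzmb had 19 UMIs in 6 members and 67 in 10, a log2 ratio of 1.00 (0.25 to 1.82), and Glrx and Atp5g3 stood at 1.06 and 1.05, of which Atp5g3 was at 0.77 without members above 8000 UMIs.

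Tff1, a secreted trefoil peptide of the gut lining, was chosen for description after its values were seen. It had 1 UMI in 1 Lmo7+/+ member and 40 UMIs in 9 Lmo7-/- members, a log2 ratio of 4.51 (1.95 to 9.85). The ratio was 5.06 without members above 8000 UMIs. Without members with regulatory T cell UMIs it was at least 1.56, a lower bound at 3 counts with no Lmo7+/+ UMI left. Without those with other lineages' UMIs it was 1.85, which may be such a bound too. Over all droplets it had 27 and 82 UMIs, so 40 of the 82 UMIs of the Lmo7-/- library lay in 49 cells. The highest cell held 16 of the 40. Of the 10 members with Tff1, 8 also had Penk and 9 had a UMI of Mki67, Top2a, Cdk1, Birc5 or Stmn1, and these were deep cells, with a median of 4362.5 UMIs where Penk was present. Among Foxp3 T cells Tff1 had 3 and 1 UMIs and among CD8 T cells 4 and 9.

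**Figure D5:**
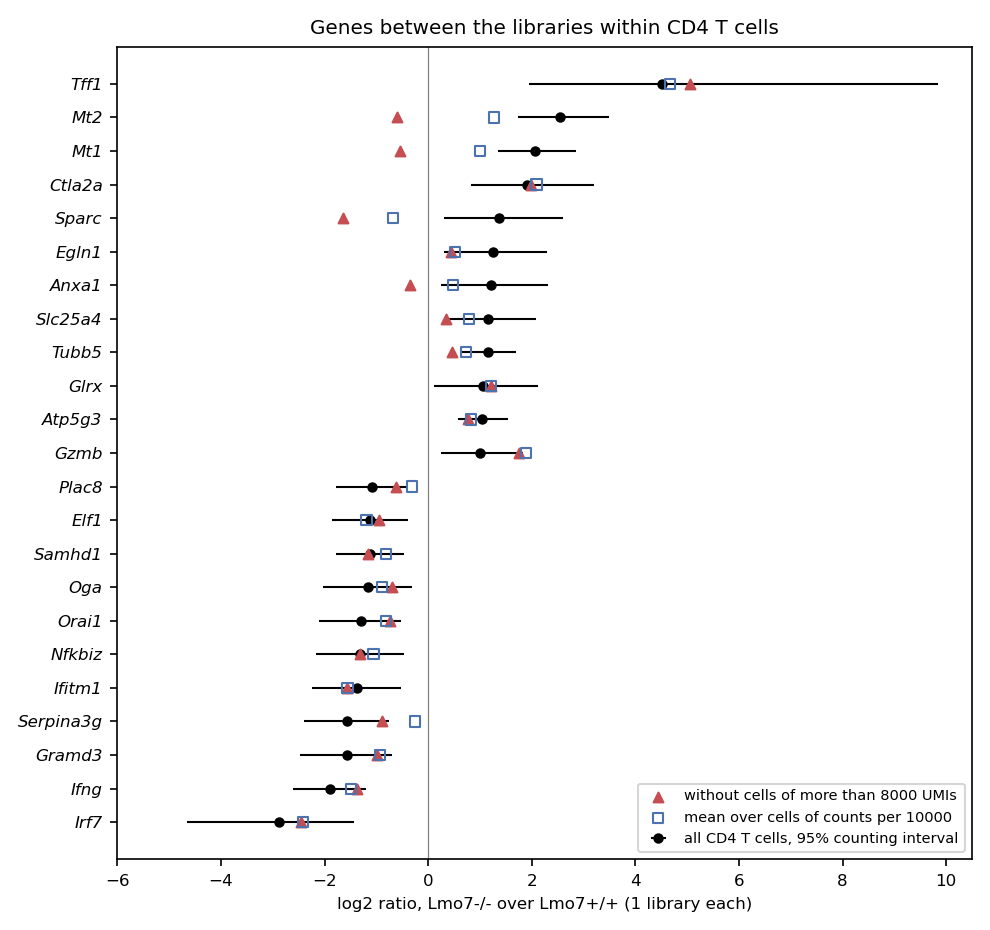
Genes are rows and the x axis is the log2 ratio of Lmo7-/- over Lmo7+/+ in conventional CD4 T cells, with 1 library each; black points carry 95% counting intervals, red triangles leave out members above 8000 UMIs and open squares average counts per 10000 over cells. The triangles of Mt1, Mt2, Anxa1 and Sparc fall below 0, whereas those of Tff1, Ctla2a, Ifng and Irf7 stay on the side of the black point.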

How the data were processed

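Raw UMI counts per gene and cell were used as deposited by the authors, 1 library for each of 2 genotypes; the submitters' processing notes name Cell Ranger 2.1.1 and the build mm10. The members, gene lists and comparisons were chosen with earlier results of these data known. For each class, counts were added up and divided by the class total. Ratios carry exact binomial 95% intervals, and differences of shares Newcombe intervals, for counting error only. Genes needed 20 counts and UMIs in 10 cells, gate genes were left out, and 0 counts against more than 3 was taken as a bound at 3 counts. No doublet caller was run. Some genes the rule would name are not reported here. Genes named were those of the gates and Icos; genes of the 30 lists with at least 20 counts past 2-fold, otherwise up to 4 of a list by counts; per comparison the 10 highest and 10 lowest ratios among called genes with at least 50 counts, without mitochondrial, ribosomal protein, T cell receptor V and immunoglobulin genes; the 15 most abundant genes; and the 10 with the highest variance over mean. Tff1 and the pairs of genes set against each other cell by cell were chosen after their values were seen. Symbols are as deposited, and 32158 of 32285 identifiers were found in GENCODE M21. Alternatives were other cell filters, gates, scalings and count minimums. The ratios, intervals and calls were tested on simulated data, in which some genes without a difference were called too. Software was scipy 1.17.1, numpy 2.4.6, matplotlib 3.10.9 and pandas 2.3.3 under Python 3.11.15, beside edgeR 4.0.16 (R 4.3.3) for TMM scaling factors.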

Additional observations from a re-analysis of the deposited data

Results flagged for a closer look

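Some genes differed between the libraries in opposite directions in conventional CD4 T cells and Foxp3 T cells, each past 2-fold with its counting interval away from 0, and the difference between the classes was not tested. On the log2 scale, Lmo7-/- over Lmo7+/+, the values were 2.55 in members and -1.38 in Foxp3 T cells for Mt2, and 2.06 and -1.15 for Mt1. They were 1.37 and -4.05 for Sparc and 1.22 and -1.97 for Anxa1. For Slc25a4 they were 1.16 and -1.50, and for Fam49b -1.03 and 1.36. Cells above 8000 UMIs held 40.5% of the UMIs of Lmo7-/- members and 58.4% of those of Lmo7+/+ Foxp3 T cells.

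Droplets below the cell filter also held cells that pass every gate, 7 in the Lmo7+/+ library (0.263% of 2666 such droplets) and 22 in the Lmo7-/- library (0.666% of 3303). Their median depths were 861 and 788.5 UMIs, 6 and 20 of them had a T cell receptor constant UMI, and 6 and 19 had an Icos UMI.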

How the results depend on the processing

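Depth and the small number of members limit these results: sums rest on 43 and 49 cells, 1 library stands for each genotype, and counting intervals do not cover differences between mice. No paired analysis was possible because each genotype has 1 library. The intervals of the difference in the members' share of kept cells included 0 except under the lenient cell filter (0.0157 to 0.299 points) and with gates after thinning (lower bound 0.001497 points). Counts are given below as genes higher or lower in members, or in Lmo7-/- members, and the cause of each change was not tested. With at least 1000 genes and 2000 UMIs and at most 10% mitochondrial UMIs (13 and 22 members), 35 genes were higher against Foxp3 T cells, and 71 higher and 22 lower against CD8 T cells. With gates after thinning to 1500 UMIs (20 and 31 members), 48 were lower in Lmo7-/-, 19 higher against Foxp3 T cells and 70 higher against CD8 T cells. With at least 2 Cd4 UMIs, 26 were higher and 41 lower against Foxp3 T cells, and with no C1q UMI 36 were higher in Lmo7-/-. Without members with regulatory T cell UMIs, 28 were higher and 14 lower against Foxp3 T cells, and 50 higher and 16 lower against CD8 T cells. Without members with UMIs of other lineages, 22 were higher and 18 lower in Lmo7-/-, and 36 higher against Foxp3 T cells. Without cells above 8000 UMIs, an alternative chosen after seeing the data, 37 were higher and 34 lower against Foxp3 T cells. With TMM factors 118 were higher and 36 lower in Lmo7-/-, and 61 lower against CD8 T cells. With at least 50 counts 14 were higher and 13 lower in Lmo7-/-.

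Some called log2 ratios changed sign. Between the libraries, Ccr2 was -1.14 under the strict cell filter, -0.54 with 2 Cd4 UMIs and -0.44 without regulatory T cell UMIs. After thinning, Anxa1 was -0.32, Mt1 -0.0800 and Mt2 -0.18, and without cells above 8000 UMIs they were -0.36, -0.54 and -0.60. Sparc was -0.11 with no C1q UMI, -1.65 without cells above 8000 UMIs and -0.68 as a mean over cells. Serpina3g was 0.73 without regulatory T cell UMIs. Without other lineages' UMIs, Ifng was 0.21, Plac8 1.17 and Tubb5 -0.96. Against Foxp3 T cells, Ccna2 was 0.46 in Lmo7+/+ after thinning, and Plac8 was -0.75 in Lmo7-/- without regulatory T cell UMIs. Csf2 was -0.54 in Lmo7-/- after thinning, which reads as a lower bound. Against CD8 T cells in Lmo7+/+, Col3a1 was 0.84, Col6a2 0.37 and Vcam1 0.61 after thinning, values that may be upper bounds at 3 counts. Without regulatory T cell UMIs, Abcb9 was at most 0.29, C1qtnf6 at most 0.27, Col3a1 at most 0.35 and Ppp1r3b at most 0.37 in Lmo7+/+. These are upper bounds at 3 counts, with no UMI left in members. Il2ra was -1.47 in Lmo7-/-, a sign that this filter on Il2ra fixes. Without other lineages' UMIs, Abcb9 was at most 0.0748 and C1qtnf6 at most 0.0581 in Lmo7+/+, again upper bounds with no UMI left in members. Ccr2 was -0.78 there.

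Under each of 5 alternatives, 1 at a time (no regulatory T cell UMIs, no other lineages, no cells above 8000 UMIs, TMM, means over cells), 14 of the 60 genes higher than in Foxp3 T cells remained called in every one, among them Tnfsf8, Tnfsf11, Cxcr6 and Ramp3, and 3 of the 22 lower ones, Il2ra, Glrx and Gzmb. Il2ra is at 0 by construction in 1 of the 5, which drops every member with an Il2ra UMI. Against CD8 T cells 26 of 115 and 6 of 39 remained. Between the libraries 2 of 57 remained, Cap1 and Atp5j, and 0 of 83.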

Other observations

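Cell division genes were counted in members, with many of their UMIs in few cells. At least 1 UMI of Mki67, Top2a, Cdk1, Birc5 or Stmn1 was found in 17 of 43 Lmo7+/+ and 26 of 49 Lmo7-/- members, but 10 or more in 2 and 7, and 3 cells held 56.1% and 44.7% of these UMIs. Of 16 proliferation genes, the cyclins Ccna2 and Ccnb1 were lower in members than in Foxp3 T cells and none was higher. Over all genes 0.554% were lower. All 15 Ccnb1 UMIs of Lmo7+/+ Foxp3 T cells came from 1 cell. The log2 ratio of Ccna2 turned to 0.46 in Lmo7+/+ with gates after thinning. Ccna2 was also lower than in CD8 T cells, where 0.419% of all genes were lower. The list's median log2 ratio was -0.78 and -0.69 against Foxp3 T cells. The 16 proliferation genes summed to 2965 and 4140 CPM in members, 5336 and 6645 CPM in Foxp3 T cells and 4949 and 5063 CPM in CD8 T cells. Of the genes that also rise when tissue is dissociated, Btg2, Fosb and Fos, 3 of 14 compared, were higher than in Foxp3 T cells (1.51% of all genes), and Junb and Dusp1, 2 of 16, higher than in CD8 T cells (1.24% of all genes). The medians of that list were 0.34 and 0.27 and, against CD8 T cells, 0.23 and 0.35.

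The most counted genes outside mitochondria and ribosomes were Tmsb4x, Actb, Eef1a1, Actg1, Cfl1, Tpt1, B2m, H2-D1, H2-K1, Gapdh, Ptma, Fth1, Vim, Penk and Tmsb10.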
